A study of Mus musculus with 3 samples.

Results

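Glucose uptake, glycolysis and lactate production were followed through 10 genes in single thymic invariant natural killer T (iNKT) cells. The genes were taken by symbol from a fixed list, and all 10 were found once each among the 30406 gene identifiers that the 3 libraries share. They are the glucose transporters Slc2a1 and Slc2a3, the hexokinases Hk1 and Hk2, the glycolytic enzymes Gapdh, Pgk1, Eno1 and Pkm, and the lactate dehydrogenase subunits Ldha and Ldhb.

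Glycolysis splits glucose into pyruvate in the cytosol and yields ATP and NADH. T cells that are activated or dividing take up more glucose and turn much of the pyruvate into lactate, which regenerates NAD+, whereas resting T cells lean on respiration in mitochondria. iNKT cells are T cells with a semi-invariant receptor that recognises lipids on CD1d, and in the thymus they develop into the NKT1, NKT2 and NKT17 effector subsets, which differ in the cytokines they make.

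The study compared iNKT cell development in mice after haploidentical bone marrow transplantation (BMT) with and without graft-versus-host disease (GvHD), and in mice without BMT. TCRβ+ CD1d-tetramer+ CD24- NK1.1- thymocytes of pooled mice were sorted after CD8+ cells were depleted, and each condition gave 1 droplet library. The WT library came from untransplanted C57BL/6 mice labelled as 7 weeks old. Both BMT libraries came from F1 hosts (a C57BL/6 x BALB/c cross) that were lethally irradiated and given T cell-depleted C57BL/6 marrow, labelled as 16 weeks old and 9 weeks after BMT. The BM only hosts received marrow alone (labelled Non-GVHD) and the BM + Spl hosts also received C57BL/6 splenic cells (labelled GVHD). Thymocytes of the host that survived irradiation were not told apart from those of the donor by the labels. By flow cytometry, the study reported that nearly all iNKT cells of GvHD mice came from the donor.

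With 1 library per condition there was no replicate, so no test was run, and every interval below is a 95% interval that covers counting error only. Levels are unique molecular identifiers (UMIs, counted transcript molecules) of a gene scaled to the total UMIs of the same cells (CPM). The WT, BM only and BM + Spl libraries kept 4434, 5970 and 5557 cells after filters, with medians of 12074, 4721 and 6463 UMIs per kept cell over the identifiers that all libraries share. The median share of mitochondrial UMIs was 6.52% in WT and 0.688% and 0.512% in the BMT libraries. The WT table was also made with another version of Cell Ranger. The sources name kits for either end of the transcript without saying which library used which. BMT, age, host strain, kit and library cannot be told apart between WT and either BMT library. No barcode was shared between WT and a BMT library, and 43 were shared between both BMT libraries.

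Cells were placed in gates by marker genes after each cell had been thinned to 2700 UMIs, so that deep and shallow cells were gated alike. The NKT1 gate (Tbx21, Il2rb, Cxcr3, Nkg7, Xcl1, Slamf7 and Klrd1) held 956 cells in WT, 1979 in BM only and 568 in BM + Spl. The NKT2 gate (Zbtb16, Il17rb, Il4, Il13, Pdcd1 and Id3) held 925, 383 and 618, and the NKT17 gate (Il1r1, Il23r, Blk, Ccr6 and others) held 99, 314 and 186. Cycling cells, with 5 or more UMIs of S and G2/M phase genes, numbered 796, 500 and 724. A gate is a range of a score and not a cell type. Because the sort took NK1.1- cells, the NKT1 gate leaves out the NK1.1+ cells that the study describes as mature NKT1 cells. Of the NKT2 gate, 53.4%, 48.0% and 51.9% of cells lay near its limit, with 3 or 4 UMIs of its list, against 23.5%, 6.52% and 31.9% of the NKT1 gate.

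The label iNKT held less well after BMT. The Treg gate (a Foxp3 UMI after thinning, in cells of no earlier gate) held 0 cells in WT, 400 in BM only and 462 in BM + Spl. The CD8 gate, read next (2 or more Cd8a or Cd8b1 UMIs), held 1, 122 and 287. Before thinning, Foxp3 was at 0.068 CPM over all WT cells. It was at 4.39 and 22.1 CPM in the NKT1 gates of BM only and BM + Spl. Cells with plasmacytoid dendritic cell (pDC) genes numbered 2, 163 and 401. iNKT receptors use few TCR V beta segments, and in BMT cells the V beta segment could be read. In the BM only library, 92.2% of NKT1-gated cells with a V beta call used 1 of the 6 iNKT segments (Trbv1, Trbv12-2, Trbv13-1 to 13-3 or Trbv29), against 41.9% in BM + Spl. The NKT2 gates were alike in this, with 97.1% and 93.2%. These segments do not by themselves mark an iNKT cell, since 25.4% and 27.0% of Treg-gated cells and 43.0% and 36.6% of CD8-gated cells used them too. The WT library had a V beta UMI in 19.8% of cells and was not split this way.

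The genes lie on 6 chromosomes (mm10, GENCODE). Slc2a1 is at chr4:119108711-119137983 and Eno1 at chr4:150236721-150248879, both on the plus strand. Slc2a3 (chr6:122727809-122801640), Hk2 (chr6:82725025-82774454), Gapdh (chr6:125161715-125166467) and Ldhb (chr6:142490249-142507957) share chromosome 6 on the minus strand. Ldha is at chr7:46841475-46855627 (plus), Pkm at chr9:59656368-59679375 (plus), Hk1 at chr10:62268855-62379908 (minus) and Pgk1 at chrX:106187100-106203699 (plus).

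Glycolytic genes are known targets of HIF-1, which binds sites with an ACGTG core, and of Myc, which binds the E-box CACGTG. The 250 bases before each RefSeq start (GRCm38.p6) were searched on both strands for these letters. Of the 10 genes, 9 had an entry, with 14 starts in all, and Slc2a3 had none. ACGTG was found before 5 of the 14 starts, those of Slc2a1, Hk2, Pkm, Pgk1 and Ldha, against 16.6% of all 32851 promoters (5444). CACGTG, which holds ACGTG on both strands, was found before 1 start of Ldha, against 6.02% (1978). The windows of Ldha (chr7:46845554-46845803, plus) and Pgk1 (chrX:106186850-106187099, plus) held the matches shown in capitals, 5 and 2 strand matches of ACGTG. That of Ldhb (chr6:142507958-142508207, minus) held none. The windows of Gapdh, Eno1 and Hk1 held none as well, and those of Slc2a1 and Hk2 held 1 and 2. Whether matches go with levels was not tested. The other RefSeq start of Ldha held none, and the one shown is that with most matches. Its window lies within the gene span given above. The bases after this start were found in no GENCODE transcript of Ldha, whereas those of Pgk1 and Ldhb were found. The lactate dehydrogenase pair is shown because one window holds matches and the other none, and Pgk1 as another enzyme whose window holds matches.
Ldha: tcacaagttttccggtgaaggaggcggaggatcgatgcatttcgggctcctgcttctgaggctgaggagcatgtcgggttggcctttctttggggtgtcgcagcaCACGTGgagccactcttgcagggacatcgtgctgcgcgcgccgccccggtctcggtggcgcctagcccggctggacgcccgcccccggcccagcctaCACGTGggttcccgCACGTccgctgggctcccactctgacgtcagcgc
Pgk1: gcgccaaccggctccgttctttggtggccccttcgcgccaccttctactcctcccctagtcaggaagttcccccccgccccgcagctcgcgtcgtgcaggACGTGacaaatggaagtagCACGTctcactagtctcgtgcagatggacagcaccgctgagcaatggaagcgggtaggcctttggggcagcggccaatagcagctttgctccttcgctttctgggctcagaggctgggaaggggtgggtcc
Ldhb: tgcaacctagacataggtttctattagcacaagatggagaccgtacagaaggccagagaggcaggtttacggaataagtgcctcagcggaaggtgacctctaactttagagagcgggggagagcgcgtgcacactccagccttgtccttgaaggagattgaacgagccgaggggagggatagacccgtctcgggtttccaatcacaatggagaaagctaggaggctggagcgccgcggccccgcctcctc
A match is a run of letters and not a measured binding site, and no factor binding was measured here.

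Of the 10 genes, 5, Gapdh, Pgk1, Eno1, Pkm and Ldha, were lowest in NKT1-gated cells and highest in cycling cells among the iNKT gates of the BM only library, although the Eno1 intervals of its NKT1 and NKT17 gates overlapped. Together the 10 genes took 1726 CPM in the NKT1 gate of WT, 2853 in the NKT2 gate and 4654 in S phase cells. The same sums were 3431, 6487 and 9004 CPM in BM only and 6225, 6535 and 10032 CPM in BM + Spl. Gapdh gave 730.2, 1436 and 3334 CPM of the NKT1 sums, so the sum follows Gapdh closely. The NKT1 gate was far below the NKT2 gate in WT and BM only, and close to it in BM + Spl. The plot of levels by gate shows each gene in each library.

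**Figure D1:**
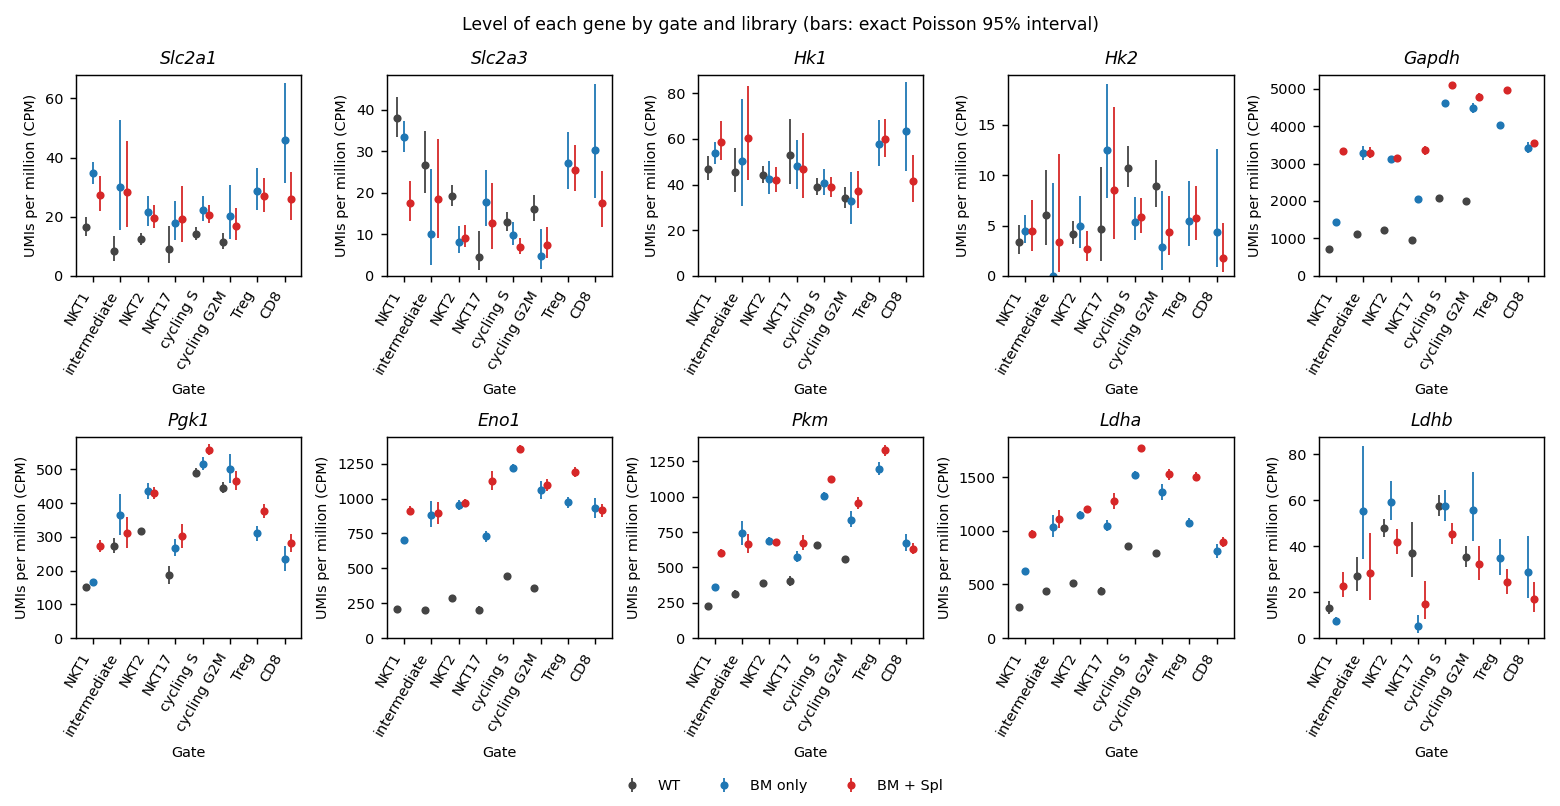
Level of each gene (y axis, CPM, linear from 0, a scale of its own for each gene) by marker gate (x axis) in WT (grey), BM only (blue) and BM + Spl (red). Points are summed UMIs over a gate, bars are exact Poisson 95% intervals of counting error, and WT has no point in the Treg and CD8 gates, which held under 30 of its cells. Gapdh, Pgk1, Eno1, Pkm and Ldha are higher in S phase cells than in the NKT1 gate of each library, and Slc2a3 is lower there.

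The glucose transporters did not follow the enzymes. Slc2a3, which encodes the high-affinity transporter GLUT3, had its highest level in the NKT1 gate of WT, at 38.0 CPM (33.5 to 43.0), and of BM only, at 33.5 CPM (29.9 to 37.3). The NKT2 gate held 19.2 and 8.29 CPM, and the intervals of both gates were apart in each library. In BM + Spl the NKT1 gate held 17.6 and the NKT2 gate 9.24 CPM. Slc2a1 encodes GLUT1, the transporter that activated T cells are known to raise. Its NKT1 levels were 16.4, 34.7 and 27.5 CPM in WT, BM only and BM + Spl, and its NKT2 levels were 12.5, 21.5 and 19.7 CPM. The log2 ratios of Slc2a1 for NKT2 over NKT1 were -0.40 (-0.76 to -0.04), -0.69 (-1.09 to -0.32) and -0.48 (-0.90 to -0.05). Both transporters were thus lower in the NKT2 than in the NKT1 gate in 3 of 3 libraries, though each had under 200 UMIs in BM + Spl. Among BM + Spl cells with an iNKT V beta segment, however, Slc2a3 was at 9.62 CPM in NKT2 and 9.42 in NKT1, a log2 ratio of 0.03 (-0.94 to 1.13), so its direction was not kept there. Slc2a1 was at -0.30 (-0.89 to 0.32) in these cells, an interval that held 0. Among cells of 4000 to 10000 UMIs, the Slc2a1 interval also held 0 in WT (-1.29 to 0.28) and BM + Spl (-0.86 to 0.28), but not in BM only. The Slc2a3 interval held 0 in that range in BM + Spl (-1.63 to 0.06), but not in WT or BM only. In S phase cells Slc2a1 reached 14.2, 22.4 and 20.7 CPM, so that cycling cells did not stand above the NKT1 gate in any library.

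Hexokinases make the first commitment of glucose by phosphorylating it. Hk1 differed by less than 1.5-fold between the NKT1 and NKT2 gates. It was at 46.9, 53.7 and 58.8 CPM in the NKT1 gates and 44.2, 42.7 and 41.9 CPM in the NKT2 gates. Over all cells it was lower in NKT2 in 3 of 3 libraries, although the interval of its WT log2 ratio of -0.08 held 0. Among cells of 4000 to 10000 UMIs its WT log2 ratio was 0.20 (-0.18 to 0.56), and its BM only interval (-0.57 to 0.14) held 0. That of BM + Spl (-0.94 to -0.19) lay below 0 there. Hk2, the inducible form, was sparse, and its NKT1 gates held 23, 43 and 14 UMIs in all. In WT it was highest in S phase cells, at 10.7 CPM (8.83 to 12.9) against 4.20 CPM (3.16 to 5.48) in the NKT2 gate. The corresponding S phase levels in BM only and BM + Spl were 5.36 and 5.82 CPM, with intervals that overlapped those of most other gates. In BM only the NKT17 gate held 12.5 CPM (7.71 to 19.0), above its NKT1 gate at 4.50 CPM.

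NKT2-gated cells held more transcript of most pathway enzymes than NKT1-gated cells in WT and BM only. Gapdh, which oxidises glyceraldehyde 3-phosphate, was at 1220.5 CPM in the NKT2 and 730.2 in the NKT1 gate of WT, a log2 ratio of 0.74 (0.69 to 0.79). In BM only the levels were 3127 and 1436 CPM, a log2 ratio of 1.12 (1.09 to 1.16). In BM + Spl they were 3143 and 3334 CPM, a log2 ratio of -0.09 (-0.12 to -0.05), below 1.5-fold and of the other sign. The log2 ratio turned to 0.03 when ribosomal genes were left out of the total. It was -0.23 (-0.28 to -0.19) among cells of 4000 to 10000 UMIs. Among cells with an iNKT V beta segment it was -0.02 (-0.07 to 0.03), an interval that held 0. Such a segment was used by 93.2% of NKT2-gated and 41.9% of NKT1-gated cells with a call in BM + Spl. The part of this makeup in the ratios was not tested further. Pgk1, the first enzyme of the pathway to yield ATP, was higher in the NKT2 gate of all 3 libraries. Its levels were 317, 436 and 429.9 CPM in the NKT2 gates of WT, BM only and BM + Spl, against 151, 166 and 273 CPM in the NKT1 gates. Its log2 ratios were 1.08, 1.39 and 0.66.

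Pkm encodes pyruvate kinase, which makes pyruvate, and had log2 ratios of 0.76, 0.92 and 0.17 in the same order. For Ldha, which turns pyruvate into lactate, they were 0.81, 0.87 and 0.30. Eno1, an enolase, had 0.47, 0.43 and 0.09, under 1.5-fold in each library. Ldhb had the largest upward ratio of all members in each library. It stood at 59.2 CPM (51.2 to 68.2) in the NKT2 gate and 7.42 CPM (5.80 to 9.36) in the NKT1 gate of BM only, 7.98-fold higher, with a log2 interval of 2.60 to 3.41. In WT its log2 ratio was 1.84 (1.52 to 2.18) and in BM + Spl 0.88 (0.49 to 1.28). Pgk1, Eno1, Pkm, Ldha and Ldhb were therefore higher over all cells of the NKT2 gate in 3 of 3 libraries, and Gapdh in 2 of 3. Among BM + Spl cells with an iNKT V beta segment, Pgk1 had 0.74, Eno1 0.22, Pkm 0.24, Ldha 0.34 and Ldhb 0.85, each with an interval above 0.

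A gene was counted as past the limit when its ratio was over 1.5-fold and both gates together held at least 200 of its UMIs. In WT, 5 of 9 members with enough UMIs were past it upward in NKT2 (Gapdh, Pgk1, Pkm, Ldha and Ldhb), where 8.87% of all genes were, and 1 downward (Slc2a3), against 11.8%. In BM only 5 of 9 were past it upward, against 11.0% of all genes, and 2 downward (Slc2a1 at -0.69 and Slc2a3 at -2.01), against 14.7%. In BM + Spl 2 of 7 were past it upward (Pgk1 and Ldhb), against 9.87%, and 0 downward, against 13.8%. In either direction 20.7%, 25.7% and 23.7% of all genes were past it in WT, BM only and BM + Spl. The median log2 ratio of the members tested was 0.74, 0.87 and 0.17, beside -0.03, 0.04 and -0.01 over all genes tested. All 10 genes are shown in the plot of ratios within a library.

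**Figure D2:**
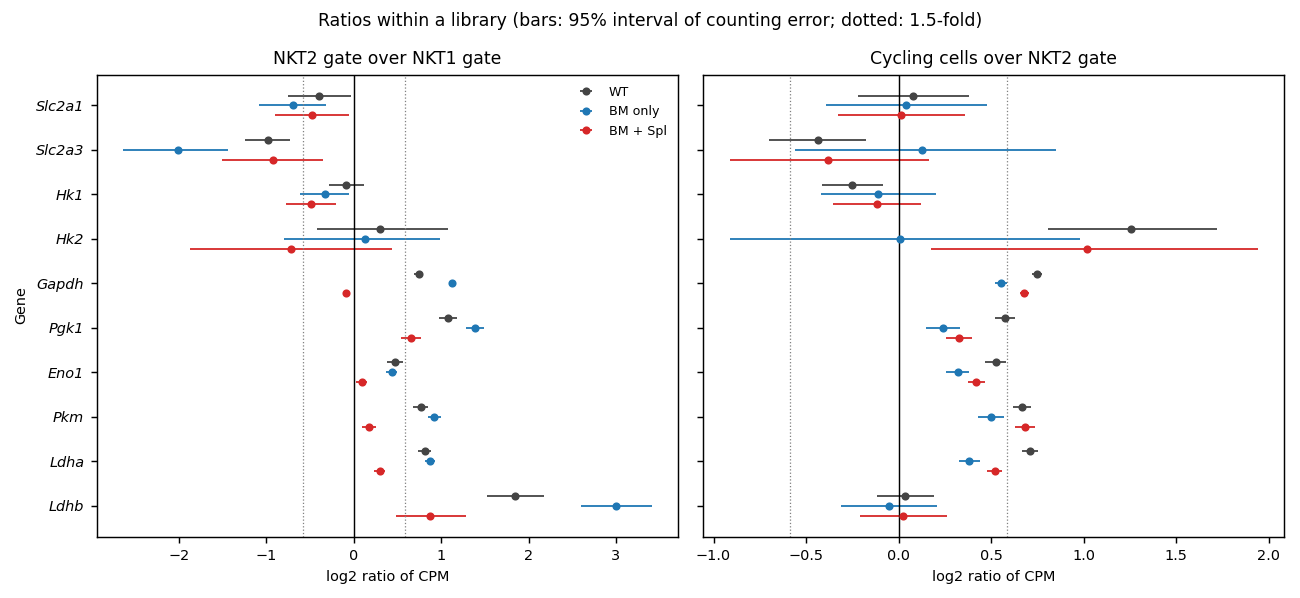
Log2 ratio of CPM (x axis) of each gene (y axis) between the NKT2 and NKT1 gates (left) and between cycling cells and the NKT2 gate (right), in WT (grey), BM only (blue) and BM + Spl (red). Bars are 95% intervals of counting error and dotted lines mark 1.5-fold. In the left panel Pgk1 and Ldhb lie to the right of the upper limit in all 3 libraries, and the BM + Spl point of Gapdh lies near 0.

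Depth moved with this comparison. NKT2-gated cells had a median of 13184 UMIs against 6388 in the NKT1 gate of WT, 8011 against 4496 in BM only and 8558 against 4801 in BM + Spl. Within gates, cells with more UMIs also gave a larger share to the 10 genes. In the NKT2 gate of WT, at 2700 UMIs per cell, their median was 5 UMIs in cells of 6000 to 10000 deposited UMIs and 9 in cells of 16000 or more. Among cells of 4000 to 10000 UMIs alone, a range chosen after values were seen, 0 of 7 members in WT were past 1.5-fold upward, against 5.02% of all genes. There Pgk1 was at 0.58, Ldha at 0.53, Gapdh at 0.40 and Pkm at 0.25 log2, and Eno1 turned from 0.47 to -0.25. In BM only 4 of 8 were still past it upward in that range, against 9.98%, with Gapdh at 0.93 and Pgk1 at 1.12. In BM + Spl 0 of 6 were, against 8.57%, with Eno1 at -0.02 (-0.11 to 0.07) and Pkm at 0.07 (-0.04 to 0.17). Gapdh was at -0.23 (-0.28 to -0.19) there. In that range Eno1 was thus higher in NKT2 in 1 of 3 libraries. With gates set on cells that were not thinned, 2 members in WT and 1 in BM + Spl were past the limit in either direction. The share of all genes past it under that gating is not reported here, so these counts cannot be set against it. The part of depth in the ratios over all cells was not tested beyond these values.

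Among 50 other genes of the pathway and its control, Pgam1, the phosphoglycerate mutase between Pgk1 and Eno1, was past 1.5-fold upward in the NKT2 gate of all 3 libraries, with log2 ratios of 1.09, 0.97 and 0.66. Txnip, which restrains glucose uptake, was past it downward in all 3, with -2.16, -1.77 and -1.37. In WT 4 of 34 genes with enough UMIs were past it upward and 2 downward, and Tkt, a transketolase of the pentose phosphate path, was at 0.63 and Mpc1, of the mitochondrial pyruvate carrier, at 0.60. In BM only 8 of 30 were past it upward and 2 downward, among them Gpi1 at 0.73 and Tpi1 at 0.75, both enzymes of upper glycolysis. In BM + Spl 3 of 25 were past it upward and 2 downward. There Tkt was at 0.65 and Hif1a, the oxygen-regulated subunit of HIF-1, at -1.46. The upward counts stand beside 8.87%, 11.0% and 9.87% of all genes in WT, BM only and BM + Spl, so those of WT and BM + Spl were near the background.

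The balance of related genes was read as a share of UMIs within the same cells, which does not depend on scaling to all UMIs. These shares are compared between gates and not as amounts of protein. Ldhb, the subunit favoured by tissues that burn lactate, made up 4.38% (3.53 to 5.35%) of Ldhb and Ldha UMIs in the NKT1 gate of WT and 8.57% (7.93 to 9.24%) in the NKT2 gate. In BM only its share was 1.17% (0.916 to 1.48%) in NKT1 and 4.92% (4.27 to 5.65%) in NKT2, and in BM + Spl 2.28% (1.78 to 2.86%) and 3.36% (2.95 to 3.81%). The Ldhb share was thus higher in the NKT2 than in the NKT1 gate of each library, with intervals apart, though those of BM + Spl nearly met. In BM + Spl 41.9% of NKT1-gated cells with a V beta call used an iNKT segment, against 93.2% in NKT2. Among its cells with such a segment, Ldhb had 27 UMIs in the NKT1 gate. Its log2 ratio there was 0.85 (0.26 to 1.49), beside 0.34 (0.25 to 0.44) for Ldha, and these intervals overlapped. Both genes were higher in NKT2, Ldhb by more than Ldha. The NKT17 gate had 7.80% Ldhb in WT, from 40 UMIs, but 0.507% in BM only and 1.15% in BM + Spl.

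Slc2a3 made up 69.8% (64.9 to 74.5%) of UMIs of both transporters in the NKT1 gate of WT, 49.1% (45.2 to 53.0%) in BM only and 39.0% (30.9 to 47.6%) in BM + Spl. In the NKT2 gates its share was 60.7%, 27.8% and 31.9%. Of transporter UMIs, WT cells in both gates therefore held mostly Slc2a3, and BMT cells of the NKT2 gate mostly Slc2a1. BMT, age, host strain, kit and library cannot be told apart in this difference between WT and BMT libraries, and its cause was not tested. Hk2 made up 21.2% (18.5 to 24.2%) of hexokinase UMIs in cycling cells of WT against 8.68% (6.59 to 11.2%) in its NKT2 gate. In BM only the same shares were 11.1% (7.62 to 15.5%) and 10.3% (6.02 to 16.2%), and in BM + Spl 12.5% (9.61 to 15.8%) and 6.10% (3.45 to 9.86%), with intervals that overlapped. With gates set on cells that were not thinned, the WT shares were 15.7% in cycling cells and 3.97% in NKT2, and with levels from thinned cells they were 15.1% and 6.09%, and 5% in cycling cells of BM only.

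**Figure D3:**
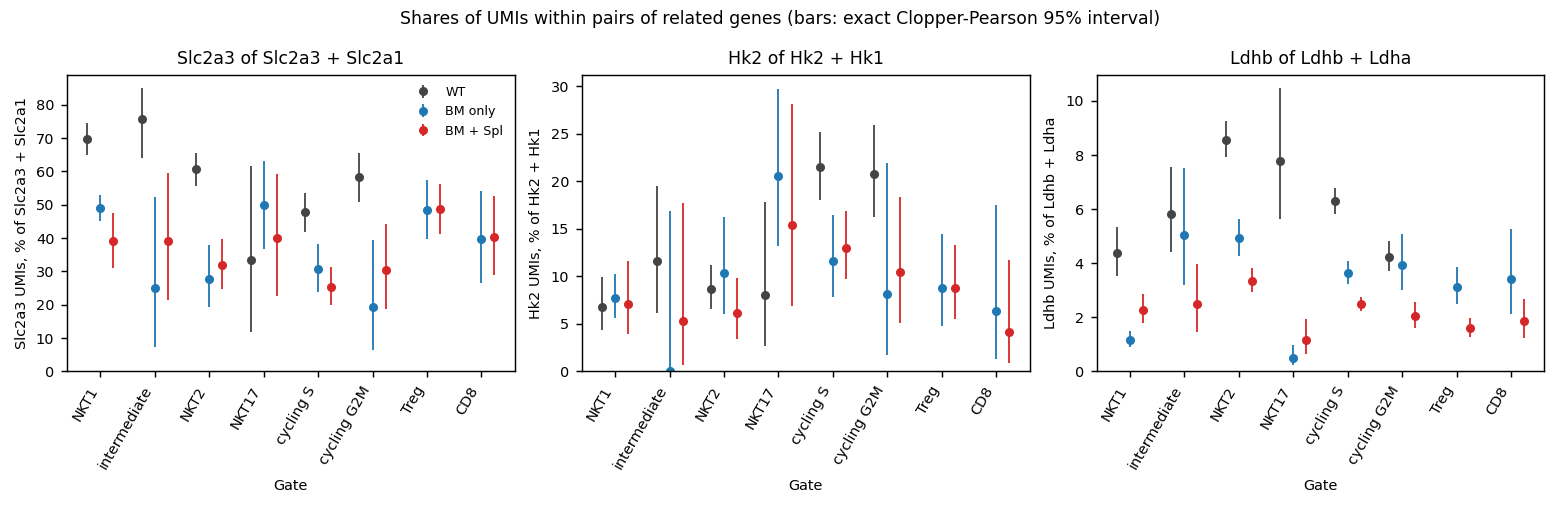
Share of UMIs (y axis, percent) of Slc2a3 among both transporters (left), Hk2 among Hk1 and Hk2 (middle) and Ldhb among Ldha and Ldhb (right), by gate (x axis) in WT (grey), BM only (blue) and BM + Spl (red). Bars are exact Clopper-Pearson 95% intervals of counting error. The Ldhb share is higher in the NKT2 than in the NKT1 gate of each library, and in WT the Hk2 share of both cycling gates lies above that of the NKT2 gate.

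Cycling cells held still more of the main enzymes than NKT2-gated cells. Gapdh stood at 2047, 4588 and 5031 CPM in cycling cells of WT, BM only and BM + Spl, log2 ratios of 0.75, 0.55 and 0.68 over the NKT2 gate. Pkm had 0.67, 0.50 and 0.68, and Ldha 0.71, 0.38 and 0.52. Pgk1 and Eno1 were also higher in cycling cells in 3 of 3 libraries, by 0.24 to 0.58 and by 0.32 to 0.52. Ldhb did not join them, at 0.04, -0.05 and 0.02, each with an interval that held 0, nor did Slc2a1, at 0.08, 0.04 and 0.01. Hk2 was higher in WT by 1.25 (0.81 to 1.72) and in BM + Spl by 1.02 (0.18 to 1.94), the latter from 15 UMIs in the NKT2 gate.

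In WT 4 of 10 members (Hk2, Gapdh, Pkm and Ldha) were past 1.5-fold upward in cycling cells, against 15.0% of all genes. In BM only 0 of 8 were, against 14.3%, and in BM + Spl 2 of 8 (Gapdh and Pkm), against 15.3%. None of these members was past it downward, where 9.50%, 6.71% and 6.29% of all genes were. In either direction 24.5%, 21.0% and 21.6% were. The members' medians were 0.55, 0.28 and 0.37, beside 0.03, 0.03 and 0.03 over all genes. Cycling cells were again the deeper ones, with medians of 21286, 11662 and 14195 UMIs, and the part of depth in these ratios was not tested beyond the range of 4000 to 10000 UMIs. In that range 3 of 5 members in WT, 0 of 5 in BM only and 2 of 5 in BM + Spl were past the limit upward, against 11.1%, 13.1% and 11.1% of all genes. The WT value rests on 30 cycling cells. Makeup differed too, since the cycling gate was read before the NKT gates. The NKT1 list summed to 250, 747 and 436 CPM in cycling cells of WT, BM only and BM + Spl. In the NKT2 gates it summed to 142, 160 and 134 CPM. An iNKT V beta segment was used by 87.1% and 78.6% of cycling cells with a call in BM only and BM + Spl. The NKT2 gates had 97.1% and 93.2%. The part of makeup in these ratios was not tested.

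Of the other pathway genes, Tpi1, the triose phosphate isomerase, and Tkt were past 1.5-fold upward in cycling cells of all 3 libraries. Their log2 ratios were 1.18, 0.94 and 1.15 for Tpi1 and 0.71, 0.70 and 0.61 for Tkt. In WT 5 of 37 were past it upward and 1 downward, with Pgam1 at 0.62 and the lactate transporter Slc16a1 at 1.29. In BM only 2 of 28 were past it upward and 1 downward, Pdk1, a kinase that holds pyruvate dehydrogenase off, at -0.63. In BM + Spl 4 of 33 were past it upward and 1 downward, with the muscle enolase Eno3 at 1.14 and Pdk3, another such kinase, at 0.78. As shares, these upward counts were below the 15.0%, 14.3% and 15.3% of all genes past it in WT, BM only and BM + Spl.

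NKT17-gated cells lay between the NKT1 and NKT2 gates for the sum of the 10 genes in WT and BM only, with 2302 and 4772 CPM. In BM + Spl the sum was 6838 CPM, above both of those gates. Pkm was at 403 CPM in the NKT17 gate of WT and 576 in that of BM only, log2 ratios over NKT1 of 0.81 and 0.67. Ldha had 0.59 and 0.74. Slc2a3 was much lower in WT, with 5 UMIs in 99 cells and a log2 ratio of -3.03 (-4.67 to -1.79), and had -0.91 in BM only. Slc2a1 had -0.96 (-1.55 to -0.42) in BM only. In BM + Spl Pkm had 0.17 and Ldha 0.39. Over all cells of the gates, both enzymes were thus higher in the NKT17 than in the NKT1 gate of each library, with intervals above 0. For the transporters, intervals lay below 0 for Slc2a3 in WT and BM only, and for Slc2a1 in BM only. Slc2a1 had -0.82 in WT and -0.52 in BM + Spl, and Slc2a3 had -0.46 in BM + Spl, each with an interval that held 0. Among BM only cells with an iNKT V beta segment both transporter intervals lay below 0, and among those with other segments both held 0. Among BM + Spl cells with other segments Pkm was at 645 CPM in NKT17 and 653 in NKT1, so its direction was not kept there. Ldha was at 1240 and 1006 CPM in these cells. With an iNKT segment Pkm was at 740 CPM in NKT17 and 565 in NKT1 of BM + Spl.

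In WT 2 of 7 members were past 1.5-fold upward, against 8.01% of all genes, and 1 downward, against 11.0%. In BM only 3 of 8 were past it upward (Pgk1, Pkm and Ldha), against 8.41%, and 2 downward, against 9.96%. In BM + Spl 0 of 6 were past it in either direction, against 4.48% and 5.99%. Of all genes 19.0%, 18.4% and 10.5% were past it in either direction in WT, BM only and BM + Spl. The members' medians were 0.31, 0.28 and 0.16, beside 0.04, 0.04 and 0.01 over all genes. The share of NKT17-gated cells with an iNKT V beta segment was 67.7% in BM only and 34.3% in BM + Spl. Among cells with an iNKT segment, 4 of 8 members in BM only were past the limit upward, against 8.98% of all genes, and 2 downward, against 12%. Among those with other segments 2 of 5 were past it upward, against 7.84%. In BM + Spl 0 of 5 were past it in either kind of cell. Of all genes, 5.38% were past it upward and 6.25% downward in cells with an iNKT segment. In those with other segments 3.11% and 6.82% were. Other pathway genes past the limit were 4 upward and 3 downward of 23 in WT, 6 and 3 of 27 in BM only and 0 of 19 in BM + Spl, beside the shares of all genes above. In WT they included Txnip at -1.72, Bsg, a partner of lactate transporters, at 0.68, Pgam1 at 0.69 and Mpc1 at 0.80. In BM only they included Txnip at -0.80, Myc at -1.33, Mpc1 at 0.76 and Foxo1 at 0.76.

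Within the NKT2 gate, cells with a Ccr7 UMI, a marker the study uses for iNKT precursors, were set against those without. Ccr7 was read after thinning, so cells without a Ccr7 UMI can still carry its transcript. None of the members was past 1.5-fold in either direction in any library, among 8 with enough UMIs in WT, 5 in BM only and 7 in BM + Spl. Upward, 0.637%, 0.308% and 0.498% of all genes were past it, and downward 0.754%, 0.396% and 0.719%, in all 1.39%, 0.705% and 1.22%. The members' medians were 0.15, 0.0011 and 0.09. Gapdh, with the most UMIs, had 0.08 (0.02 to 0.14), 0.0011 (-0.06 to 0.06) and -0.01 (-0.06 to 0.03). Eno1 had 0.34 (0.23 to 0.46), 0.08 (-0.03 to 0.19) and 0.17 (0.09 to 0.25). Ldhb had 0.44 (0.15 to 0.72), -0.39 (-0.89 to 0.09) and 0.39 (-0.01 to 0.78). Of the other pathway genes, Dlat was at -0.78 in WT and Txnip at 0.81 in BM + Spl, the only ones past the limit.

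Compared to BM only, the BM + Spl library held over 1.5-fold more transcript of 4 enzymes in the NKT1 gate. No member passed that limit in the NKT2 gate or in cycling cells, where few genes of any kind did. Of all genes, 1.22% and 2.65% passed it there in either direction, against 15.0% in the NKT1 gate. The difference between gates was not tested. In the NKT1 gate Gapdh was at 3334 CPM in BM + Spl and 1436 in BM only, a log2 ratio of 1.22 (1.18 to 1.25). Pgk1 was at 273 and 166 CPM, a log2 ratio of 0.71 (0.59 to 0.83). For Pkm the log2 ratio was 0.73 (0.64 to 0.81), for Ldha 0.64 (0.57 to 0.70) and for Eno1 0.37 (0.31 to 0.43). These 5 enzymes were each higher in BM + Spl, with intervals above 0. Ldhb was at 22.7 and 7.42 CPM from 71 UMIs in each library, a log2 ratio of 1.61 (1.12 to 2.11), with too few UMIs to be counted.

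The genes of glucose entry did not share this. Slc2a3 was lower, at 17.6 against 33.5 CPM, a log2 ratio of -0.93 (-1.37 to -0.51). For Slc2a1 the log2 ratio was -0.34 (-0.70 to 0.01) and for Hk1 0.13 (-0.12 to 0.38), both with intervals that held 0. In all, 4 of 8 members with enough UMIs were past 1.5-fold upward, against 7.67% of all genes, and 1 downward, against 7.30% (15.0% of all genes in either direction). The members' median was 0.50, beside 0.05 over all genes.

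**Figure D4:**
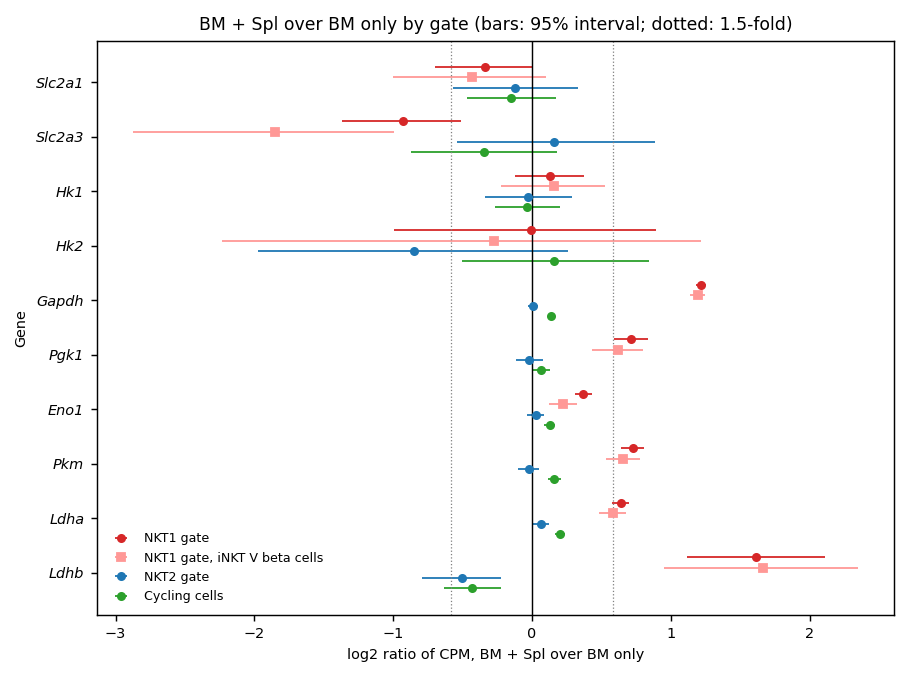
Log2 ratio of CPM, BM + Spl over BM only (x axis), of each gene (y axis) in the NKT1 gate (red circles), in NKT1-gated cells with an iNKT V beta segment (pink squares), in the NKT2 gate (blue) and in cycling cells (green). Bars are 95% intervals of counting error and dotted lines mark 1.5-fold. Gapdh, Pgk1, Pkm and Ldha lie near or past the upper limit in the NKT1 gate and near 0 in the NKT2 gate, and Slc2a3 lies past the lower limit in the NKT1 gate.

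The NKT1 gates of both BMT libraries differed in markers and V beta use. Besides the lower share of iNKT V beta segments, the NKT1 list summed to 3088 CPM in BM + Spl and 3958 in BM only. The NKT2 list summed to 316 and 165 CPM, the NKT17 list to 156 and 45.9, and Cd8a with Cd8b1 to 24.3 and 12.4. Median depth was close, 4801 and 4496 UMIs. Among the 211 and 1652 NKT1-gated cells with an iNKT V beta segment, Gapdh kept a log2 ratio of 1.19 (1.14 to 1.25). There Pgk1 had 0.62 (0.43 to 0.80), Pkm 0.65 (0.53 to 0.78), Ldha 0.58 (0.48 to 0.68) and Slc2a3 -1.85 (-2.87 to -0.99). These 4 enzymes were thus higher by nearly as much as over the whole gate, and 3 of 8 members were past the limit upward, against 6.31% of all genes, with 1 downward, against 8.55%.

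Among the 292 and 139 NKT1-gated cells with other V beta segments, Gapdh had 0.96 (0.87 to 1.05), Pgk1 0.63 (0.35 to 0.93) and Pkm 0.75 (0.55 to 0.95). Slc2a3 was at -0.14 (-0.99 to 0.76) there, from 37 and 18 UMIs. In these cells 3 of 5 members were past the limit upward, against 9.79% of all genes. Gapdh, Pgk1 and Pkm were thus higher in NKT1-gated cells with either kind of V beta segment. The interval of Slc2a3 lay below 0 in those with an iNKT segment and held 0 in the others. The share of these segments in the NKT1 gate of BM + Spl, 41.9%, was near that of the CD8 gates, so cells other than iNKT cells can be among those with an iNKT segment.

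Of the other pathway genes, 4 of 27 were past 1.5-fold upward in the NKT1 gate of BM + Spl and 2 downward, beside the 7.67% and 7.30% of all genes. Hif1a was at 276 CPM in BM + Spl and 64.6 in BM only, a log2 ratio of 2.10 (1.95 to 2.25), above that of any member. The aldolase Aldoa had 0.63 (0.56 to 0.70) and Tpi1 0.76 (0.62 to 0.91), both enzymes that act before Gapdh. Myc, a driver of glycolytic genes in activated T cells, was lower, with -0.73 (-0.91 to -0.57). These other pathway genes were read over the whole NKT1 gate and were not split by V beta segment, so its makeup also counts in their ratios.

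In the NKT2 gate 0 of 7 members were past 1.5-fold between BM + Spl and BM only in either direction, against 0.434% of all genes upward and 0.790% downward (1.22% in all). Gapdh stood at 3143 and 3127 CPM, a log2 ratio of 0.01 (-0.03 to 0.04), and Pkm had -0.02 (-0.10 to 0.05). Ldhb was lower, at -0.51 (-0.79 to -0.22), from 41.7 and 59.2 CPM. It was also lower in cycling cells of BM + Spl, with -0.43 (-0.64 to -0.22). In cycling cells 0 of 8 members were past the limit, against 0.999% upward and 1.65% downward (2.65% in all), and Gapdh had 0.13 (0.11 to 0.15). Cells with both NKT1 and NKT2 genes, 91 in BM + Spl and 48 in BM only, also had 0 of 5 members past it, against 6.73% and 3.06% (9.79% in all). There Gapdh had 0.0043 (-0.10 to 0.11) and Ldha 0.09 (-0.09 to 0.27). No other pathway gene was past the limit in these 3 gates.

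Over all kept cells, in which the makeup of the libraries also counts, 0 of 10 members were past 1.5-fold upward, against 4.86% of all genes. Slc2a3 was past it downward, with a log2 ratio of -0.74 (-0.90 to -0.58), against 5.34% (10.2% of all genes in either direction). Gapdh had 0.46 (0.44 to 0.47). A comparison of whole libraries thus gave a smaller Gapdh ratio than the NKT1 gate did. Eno3 was the only other pathway gene past the limit there, at 0.71.

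Between BM only and WT the NKT2 gates differed in most members, in a comparison where BMT, age, host strain, kit and library cannot be told apart. Eno1 stood at 954 CPM in BM only and 286 in WT, a log2 ratio of 1.74 (1.67 to 1.81). Gapdh had 1.36, Ldha 1.17, Pkm 0.82 and Slc2a1 0.79, whereas Slc2a3 had -1.21. In all, 5 of 9 members were past 1.5-fold upward, against 20.1% of all genes, and 1 downward, against 15.6% (35.7% of all genes in either direction). Other pathway genes were past it upward in 11 of 32 cases and downward in 0, among them Aldoa at 1.21, Gpi1 at 0.83, Pgam1 at 0.98 and Bsg at 0.78. The median over all genes was 0.09. The Eno1 family holds a near copy, Eno1b, which took 0.527 CPM in WT and 6.61 and 7.72 in the BMT libraries, and how reads were divided between both, and its part in the Eno1 ratio, was not tested.

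Single cells of a gate varied widely. At 2700 UMIs per cell, an NKT1-gated cell of WT held a median of 4 (quartiles 3 and 6) UMIs of the 10 genes together, an NKT2-gated cell 7 (quartiles 4 and 9) and an S phase cell 12 (quartiles 9 and 15). In BM only the medians were 8 (quartiles 6 and 11), 16 (quartiles 11 and 21) and 23 (quartiles 17 and 28), and in BM + Spl 14 (quartiles 10.8 and 20), 16 (quartiles 12 and 20) and 25 (quartiles 20 and 31). The quartiles of the NKT1 and NKT2 gates met at 11 UMIs in BM only and overlapped almost wholly in BM + Spl. The median of S phase cells lay above that of the NKT2 gate in each library. Cells of a gate share a library and are not replicates.

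**Figure D5:**
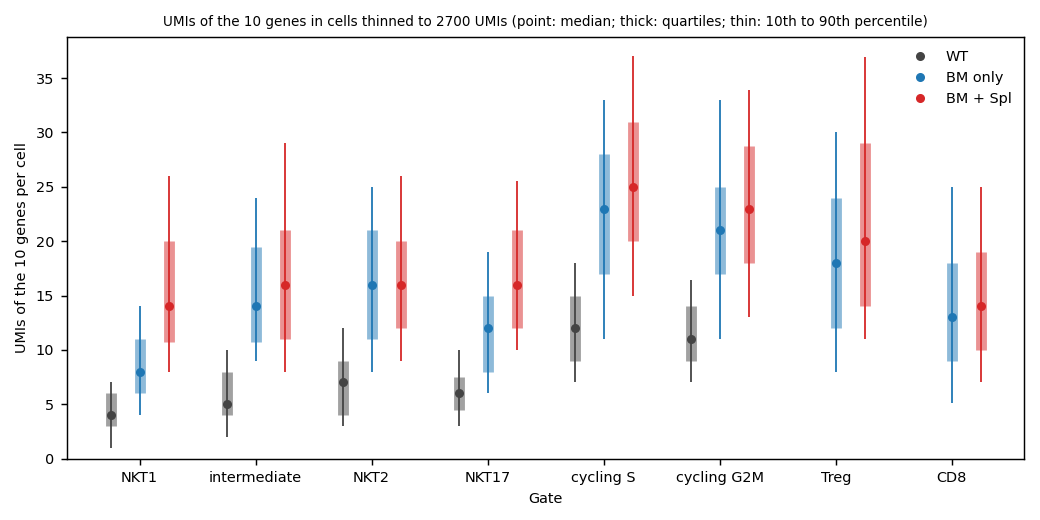
UMIs of the 10 genes together per cell (y axis, linear from 0) after each cell was thinned to 2700 UMIs, by gate (x axis) in WT (grey), BM only (blue) and BM + Spl (red). Points are medians over cells, thick bars span the quartiles and thin bars the 10th to the 90th percentile. The NKT1 gate lies below the NKT2 gate in WT and BM only, and both spans cover nearly the same range in BM + Spl.

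Cells outside the iNKT gates also carried the pathway. The Treg gate had the highest Pkm level of all gates in both BMT libraries, at 1198 CPM (1155 to 1243) in BM only and 1327 CPM (1289 to 1366) in BM + Spl. Gapdh stood at 4029 and 4971 CPM there. The Treg gate was read before the cycling gate, so it kept its dividing cells. Its S phase list summed to 1111 and 1316 CPM, against 342 and 367 in the NKT1 gates. The part of dividing cells in the Treg levels was not tested. The pDC gate held 49.1 and 72.7 CPM of Ldhb, above the NKT1 gate of the same library, with intervals apart. Its Hk1 levels, 17.2 and 16.9 CPM, were below those of the NKT1 gates at 53.7 and 58.8. Hk2 stood at 46.8 CPM (24.2 to 81.8) in the myeloid gate of BM only, from 12 UMIs in 26 cells.

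Across 26 gates with at least 30 cells, the mean pattern of the members (log2 of CPM + 1, centred per gene) was set against 9913 genes with at least 500 UMIs. Of the members, Ldha and Pkm were nearest to it, with Pearson r of 0.92 and 0.91, and Gapdh had 0.85. Slc2a1, Hk2 and Slc2a3 were far from it, with 0.30, 0.11 and -0.13. The nearest other genes were the chaperone Hspa8 (0.91), the branched-chain aminotransferase Bcat1 (0.90), Fkbp1a (0.89), the mitochondrial malate dehydrogenase Mdh2 (0.89) and Uqcrc1 of the respiratory chain (0.88). With each library centred on its own mean, an option chosen after values were seen, they were Ppat (0.93), Mrpl32 (0.91), Api5 (0.91), Psma2 (0.90) and Abracl (0.90). Centred so, Ldha, Pkm and Gapdh had 0.90, 0.88 and 0.85, and Slc2a1, Hk2 and Slc2a3 had -0.05, 0.26 and -0.08. Each member is part of the mean pattern, so its own values raise its r, unlike the r of other genes. The gates share 3 libraries and differ in depth, so these r describe likeness only.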

How the data were processed

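Thymic iNKT cells were measured by droplet RNA sequencing in 3 libraries. The authors aligned reads to mm10 with Cell Ranger (3.0.2 in the WT file header, 7.0.0 in both others) and deposited raw UMI counts per gene and called cell, without normalization. Seurat 4.0.2 is named in the submitters' processing notes. Here cells needed more than 200 but fewer than 6000 detected genes and less than 10% mitochondrial UMIs, which left out 179, 16 and 16 barcodes. Deposited UMIs were 60600408, 35041153 and 43383960 for WT, BM only and BM + Spl. Cells were thinned to 2700 UMIs for gating (15, 959 and 568 shallower cells left out), and raw UMIs of the identifiers shared by all tables were summed per gate and scaled to CPM. No caller of doublets was run and free RNA was not removed.

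Gates were read in a fixed order. Cells with 3 or more UMIs of B cell, myeloid, pDC, erythroid or CD4+CD8+ thymocyte genes came first, then Treg, CD8 and cycling cells. NKT1, NKT2 and NKT17 gates needed 3 or more UMIs of their list and at least 2 times those of each other list. A marker of the NKT17 list is not reported here. A V beta call needed 80% of a cell's V beta UMIs on one side. Intervals are exact Poisson for levels, exact conditional binomial for ratios and Clopper-Pearson for shares, at 95%, for counting error only, and UMI depth sets their width. Each of 18 comparisons gave a ratio per gene, a count past 1.5-fold among genes with 200 UMIs in both gates together, and the same over all genes. Named were all members and, per comparison, up to 4 other pathway genes with the most UMIs among those past 1.5-fold, with the 5 genes nearest in pattern. The members and lists were chosen with earlier results of these data known. Promoters came from a RefSeq table (GRCm38.p6). Computation used scipy 1.17.1, numpy 2.4.6 and pandas 2.3.3 under Python 3.11.15, was tested on simulated data, and figures were drawn in matplotlib 3.10.9.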

Additional observations from a re-analysis of the deposited data

How the results depend on the processing

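No paired analysis was possible because each condition had 1 library, and no replicate could be left out. Under 12 planned settings and 2 added ones, where each applied, none of the 41 member ratios past 1.5-fold changed sign in 473 values, and 160 of 1617 values of the 138 others did. The 41 were picked for lying past 1.5-fold in these same data. Settings that change the scaling move all genes of a comparison by the same amount. The lack of sign changes among the 41 was therefore largely fixed in advance and does not measure how stable they are. Unless given above, the share of all genes past the limit under each setting below is not reported here. The counts below therefore show how far a count moved with a setting, and cannot be set against a background. With a limit of 2-fold, members past it in either direction numbered 2 in WT, 4 in BM only and 0 in BM + Spl for NKT2 over NKT1, 1 and 0 for NKT17 over NKT1 in WT and BM only, 1 and 0 for cycling cells over NKT2 in WT and BM + Spl, and, for BM + Spl over BM only, 1 in the NKT1 gate and 0 over all cells. With gates set on cells that were not thinned, NKT2 over NKT1 had 2 in WT and 1 in BM + Spl, and BM + Spl over BM only had 3 in the NKT1 gate and 1 in cycling cells. With levels from thinned cells, NKT2 over NKT1 had 1 in BM + Spl and NKT17 over NKT1 had 3 in BM only. Gates of 5 list UMIs gave 1 for NKT2 over NKT1 in BM + Spl. Without the minimum of 200 UMIs the counts were 4 for NKT2 over NKT1 in BM + Spl, 5 and 2 for NKT17 over NKT1 in WT and BM + Spl, 1 each for Ccr7 in BM only and BM + Spl, and 3 and 1 for BM + Spl over BM only in the intermediate and NKT2 gates. Cycling cells over NKT2 in BM + Spl had 0 without ribosomal genes in the total and 1 without the top 5% of cells by UMIs. Added after values were seen, the range of 4000 to 10000 UMIs gave 1 for NKT2 over NKT1 in WT, 0 in BM + Spl and 1 for Ccr7 in WT, and other V beta cells gave 3 for BM + Spl over BM only in the NKT1 gate. Gapdh, at -0.09 log2 for NKT2 over NKT1 in BM + Spl, turned to 0.03 without ribosomal genes in the total. It turned to 0.06 with gates of 5 list UMIs, was -0.23 among cells of 4000 to 10000 UMIs and -0.02 among cells with an iNKT V beta segment. Leaving out ribosomal genes moved the median log2 ratio of all genes by 0.11 in that comparison and by -0.10 for cycling cells over NKT2 in WT and BM + Spl. With gates on cells not thinned, the Ldhb share was 10.2% in NKT2 and 6.05% in cycling cells of WT and 2.73% in cycling cells of BM + Spl, the Hk2 share 3.97% in NKT2 and 15.7% in cycling cells of WT and 5.15% in NKT1 of BM only, and the Slc2a3 share 57.1% and 37.1% in cycling cells of WT and BM only. With levels from thinned cells, the Ldhb share was 9.24% in NKT2 of WT and 3.27% in cycling cells of BM only, the Hk2 share 6.09% in NKT2 and 15.1% in cycling cells of WT and 5% in cycling cells of BM only, and the Slc2a3 share 56.9% in cycling cells of WT and 48% and 34.6% in NKT2 and cycling cells of BM + Spl. The causes of these moves were not tested beyond the smaller number of cells or UMIs some settings leave.

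The sparse genes Hk2, Slc2a1, Slc2a3 and Ldhb are limited by depth, and a difference within their intervals was not detectable. With 1 library per condition, differences between mice could not be measured.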
